A study of Mus musculus with 9 samples.

Results

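Expression of 9 genes for neurotrophic factors and their receptors was analysed in the midbrain of DJ-1+/+ and DJ-1-/- mice: the ligands Gdnf and Bdnf, the endoplasmic reticulum factors Cdnf and Manf, and the receptors Gfra1, Gfra2, Ret, Ntrk2 and Ntrk3. The genes were taken by symbol, and they are 9 of the 26602 genes with a count in at least 1 library. Of the 9 genes, 8 were among the 18127 genes with at least 10 counts over all libraries that were tested between genotypes, and Gdnf was below this minimum. DJ-1 is the product of Park7, a gene mutated in inherited forms of Parkinson's disease, and the study asked how its loss affects young mice from the gut to the brain. RNA was from midbrain tissue that included the substantia nigra of mice 3 to 4 months old, 4 of them DJ-1+/+ and 5 DJ-1-/-, and each mouse gave 1 library. The targeted allele had been backcrossed to C57BL/6 mice for 7 generations, both genotypes came from heterozygous matings and shared cages, and no treatment was given. The deletion was in every cell of the animal, the tissue was a bulk dissection, and the labels do not state the sex of the mice.

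GDNF family ligands bind a GFRα co-receptor on the cell surface, GFRα1 for GDNF and GFRα2 chiefly for neurturin, and the complex activates the receptor tyrosine kinase RET, which is expressed by dopaminergic neurons of the substantia nigra. BDNF acts through TrkB (Ntrk2) and neurotrophin-3 through TrkC (Ntrk3), and both receptors also exist as truncated forms without the kinase, TrkB mostly in astrocytes. CDNF and MANF are unrelated to both families. They are retained in the endoplasmic reticulum, where they take part in protein folding, and are studied for protecting dopaminergic neurons.

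In these 3′ libraries (QuantSeq) a fragment near the polyadenylated end of each transcript is read, so counts do not grow with transcript length, and unique molecular identifiers let copies made by PCR be counted once. Values are given as counts, or as counts per 1000000 counts of the library (cpm). Library totals were between 841974 and 886085 in DJ-1+/+ and between 967751 and 1098125 in DJ-1-/- mice, so that each DJ-1-/- library was the deeper one. Park7 had 105 to 132 counts in DJ-1+/+ and 14 to 29 counts in DJ-1-/- mice. DJ-1+/+ replicates 1 and 4 stood apart from the other libraries. The summed level of 9 cerebellar neuron markers was 1217 cpm in DJ-1+/+ replicate 1 and between 394 and 678 cpm in the other libraries. The summed level of 10 choroid plexus markers was 906 cpm in DJ-1+/+ replicate 4, 407 cpm in replicate 1 and between 165 and 281 cpm in the rest. Xist was at 0 to 2 counts and the Y-linked Ddx3y was present in DJ-1+/+ replicates 1 and 4 and in DJ-1-/- replicate 5. The part of these differences in the values below was not tested beyond the fits without those libraries or with Xist as a covariate. The range of counts was narrow, with 1040 to 1359 counts for the most abundant gene of a library and 3.58% to 3.86% of all counts in the top 100 genes. Whether the tags limited high counts was not tested. Ratios of levels between genes, and fold changes between genotypes with their intervals, may therefore be too small.

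The 9 genes fell into 3 ranges of expression. Ntrk2 was highest at 254 ± 25.6 cpm (SD, n = 9) and Ntrk3 was next at 154 ± 13.9 cpm. Ret followed at 101 ± 16.2 cpm. In each of the 9 mice the order of these 3 receptors was the same, and the ranges of the 3 did not overlap. Bdnf at 86.8 ± 6.93 cpm, Gfra2 at 82.6 ± 10.9 cpm, Manf at 79.6 ± 11.5 cpm and Gfra1 at 71.8 ± 10.2 cpm came after Ret, and from Ret to Gfra1 no neighbours in this order differed by more than the larger of their SDs. Cdnf was far lower at 3.39 ± 2.47 cpm, and Gdnf was lowest at 0.579 ± 0.553 cpm. The receptors were thus measured with many counts in this tissue, whereas Gdnf was below the floor of 3 counts in each library.

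**Figure D1:**
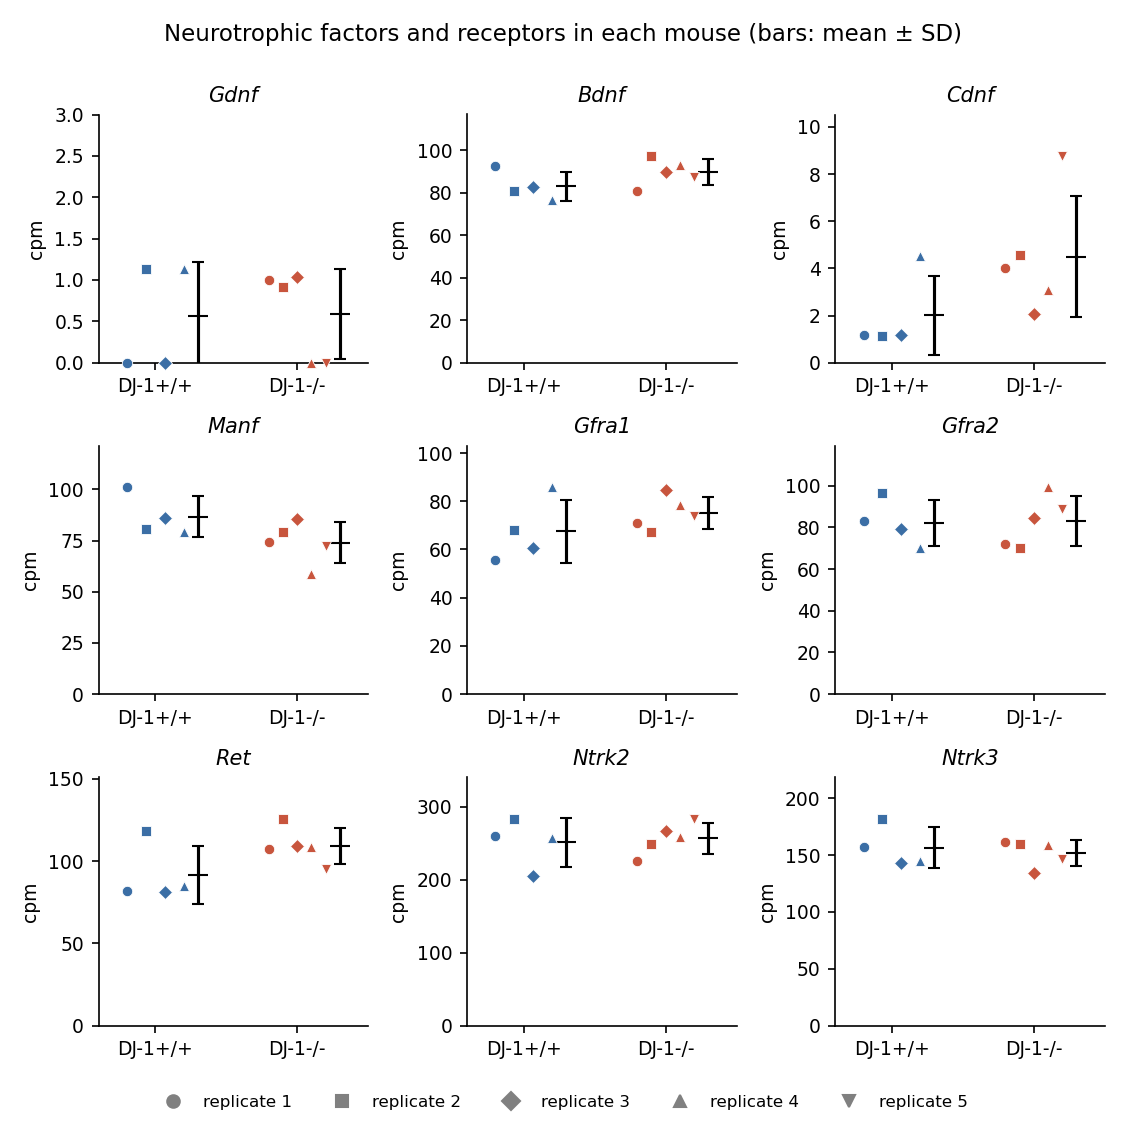
Expression of each gene in cpm (vertical axes, from 0) in 4 DJ-1+/+ (blue) and 5 DJ-1-/- (red) mice, 1 point per mouse, with marker shapes for the replicate numbers and black bars for the mean ± SD. The genotypes overlap for each gene, DJ-1+/+ replicate 2 is above the other DJ-1+/+ mice for Ret, and Gdnf does not exceed 1.14 cpm.

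None of the 9 genes differed between genotypes after adjustment over all genes tested. In edgeR's quasi-likelihood test each of the 8 genes tested had an adjusted p of 0.9999, as 1 of the 18127 genes (0.00552%) had an adjusted p under 0.05. At an unadjusted p under 0.05, 1 of the 8 genes passed, Ret, where 2.82% of all genes tested did (1.55% higher and 1.27% lower in DJ-1-/- mice), and with DESeq2 none of the 8 passed at either threshold. Of the 8 genes, 6 had a log2 fold change above 0 and 2 below, where 51.8% of all genes tested were above 0. The median of the 8 was 0.07 beside 0.01 over all genes tested. No gene had an exact two-sided permutation p under 0.05, which 3.67% of the genes tested had. The values of the genotypes overlapped for all 9 genes, where 1.25% of the genes tested did not overlap. For 4 mice against 5 the smallest p that this permutation test allows is 0.0159.

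**Figure D2:**
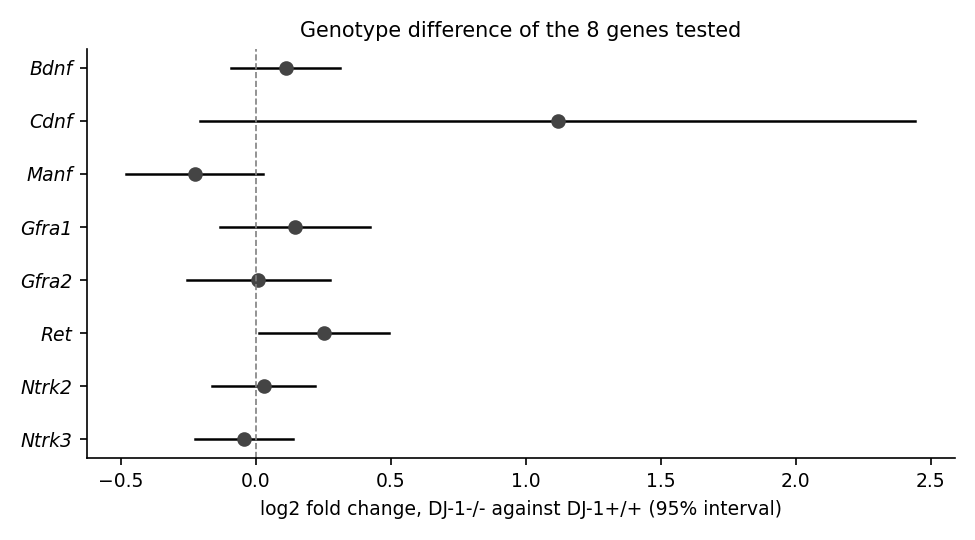
Log2 fold change of DJ-1-/- against DJ-1+/+ mice (horizontal axis) for the 8 genes tested, as points with 95% intervals from edgeR's quasi-likelihood test. The interval of Ret lies above 0, from 0.01 to 0.50, the others include 0, and that of Cdnf is the widest.

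Among the ligands, Gdnf was detected with only 5 counts in all 9 libraries together. The gene is at chr15:7810846-7837575 (plus strand, GRCm38), and its counts were 0, 1, 0 and 1 in DJ-1+/+ and 1, 1, 1, 0 and 0 in DJ-1-/- mice. No mouse exceeded 3 counts, the floor taken here, which corresponds to between 2.73 and 3.56 cpm. A difference between genotypes was not detectable at this depth, and no fold change is given.

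Bdnf, the ligand of TrkB, is at chr2:109674700-109727007 (plus strand). It had 78, 71, 71 and 68 counts in DJ-1+/+ and 81, 107, 87, 90 and 90 counts in DJ-1-/- mice, which is 83.2 ± 6.77 cpm (SD, n = 4) against 89.8 ± 6.10 cpm (SD, n = 5). The raw counts do not overlap, but the DJ-1-/- libraries were deeper, and in cpm DJ-1+/+ replicate 1 at 92.6 was above 3 of the DJ-1-/- mice. This was a log2 fold change of 0.11 (SE 0.09, unadjusted p = 0.294 in edgeR's quasi-likelihood test), and the 95% interval corresponds to 0.940 to 1.24 times the DJ-1+/+ level. The exact permutation p was 0.175. Within a genotype Bdnf varied no more than counting error, with a chi-square per degree of freedom of 0.448. Its 11 annotated transcripts begin at different promoters but share 1 annotated end. The deposited counts are summed per gene, so transcripts that differ in promoter or 3′ end are pooled.

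Gfra1, the co-receptor of GDNF, is at chr19:58235604-58455909 (minus strand). Its counts were 47, 60, 52 and 76 in DJ-1+/+ and 71, 74, 82, 76 and 76 in DJ-1-/- mice, or 67.6 ± 13.2 cpm (SD, n = 4) against 75.1 ± 6.68 cpm (SD, n = 5). The highest level of all 9 mice, 85.8 cpm, was in DJ-1+/+ replicate 4, the library with the choroid plexus markers, and the other 3 DJ-1+/+ mice were between 55.8 and 68.2 cpm. This gave a log2 fold change of 0.15 (SE 0.13, unadjusted p = 0.281 in edgeR's quasi-likelihood test). Without DJ-1+/+ replicate 4 it was 0.28, with an unadjusted p of 0.0408 and an exact permutation p of 0.0714. Without DJ-1+/+ replicate 1 it was 0.07 (unadjusted p = 0.623), and without DJ-1+/+ replicate 3 it was 0.10 (unadjusted p = 0.513).

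Gfra2, the co-receptor of neurturin, is at chr14:70890120-70979838 (plus strand). Its counts were 70, 85, 68 and 62 in DJ-1+/+ and 72, 77, 82, 96 and 91 in DJ-1-/- mice. In cpm the means were 82.2 ± 11.1 (SD, n = 4) against 82.9 ± 12.1 (SD, n = 5), the closest pair among the 8 genes tested. Low and high mice were found in both genotypes, with DJ-1+/+ mice between 70.0 and 96.6 cpm and DJ-1-/- mice between 70.1 and 99.2 cpm. With a log2 fold change of 0.01 (SE 0.12), the 95% interval was 0.838 to 1.21 times the DJ-1+/+ level. Its sign turned under several alternatives.

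Ret, the signalling receptor of the family, is at chr6:118151745-118197718 (minus strand). It had 69, 104, 70 and 75 counts in DJ-1+/+ and 107, 138, 106, 105 and 98 counts in DJ-1-/- mice. In cpm, DJ-1+/+ replicates 1, 3 and 4 lay close together at 82.0, 81.4 and 84.6, whereas replicate 2 was at 118. The DJ-1-/- mice were at 107, 125.7, 109, 108 and 95.5 cpm, so that DJ-1+/+ replicate 2 was above 4 of the 5. The means were 91.6 ± 17.8 cpm (SD, n = 4) against 109 ± 10.8 cpm (SD, n = 5). In edgeR's quasi-likelihood test the log2 fold change was 0.25 (SE 0.11), with an unadjusted p of 0.0405 and an adjusted p of 0.9999, while the exact permutation p was 0.0952.

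The unadjusted p of Ret depended on single libraries. Without DJ-1+/+ replicate 2 the log2 fold change was 0.40, with an unadjusted p of 0.00148 and an exact permutation p of 0.0357, the smallest that 3 mice against 5 allow. Without any 1 of the other 3 DJ-1+/+ mice, or of DJ-1-/- replicates 1 to 4, it was between 0.20 and 0.26 and did not pass 0.05. Without DJ-1+/+ replicates 1 and 4 together it was 0.13 (unadjusted p = 0.358), and in the libraries with Xist alone it was 0.17 (unadjusted p = 0.233). The direction was the same in all 20 alternatives.

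**Figure D3:**
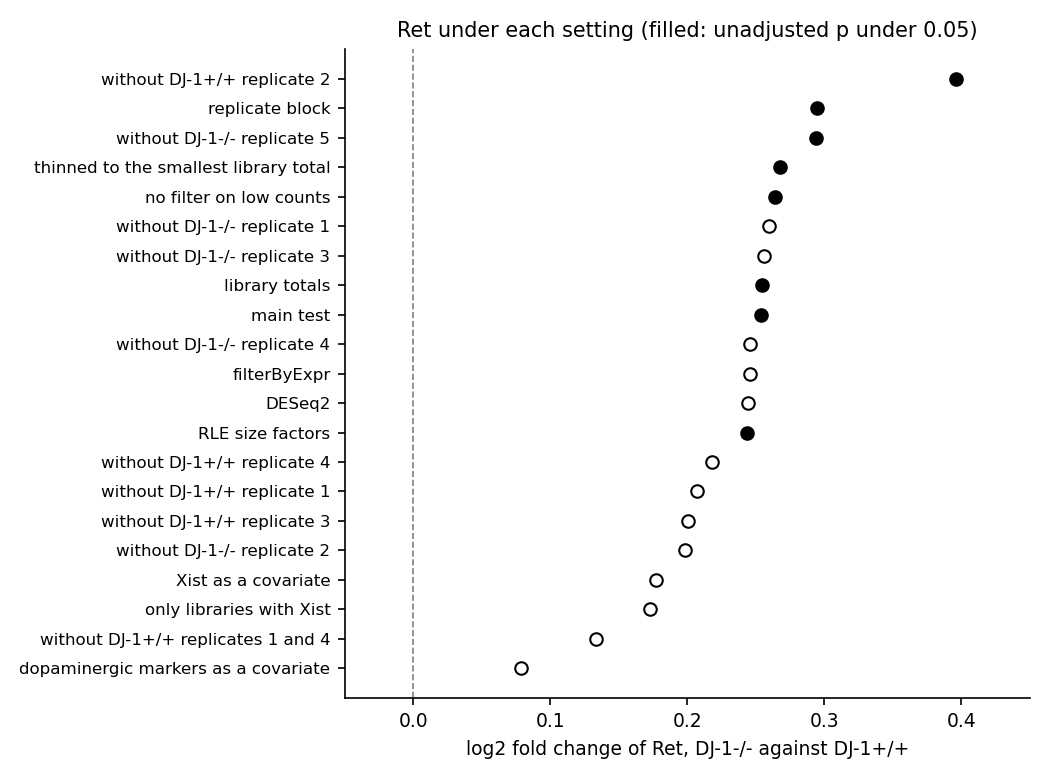
Log2 fold change of Ret (horizontal axis) in the main test and under each alternative, sorted by value. Filled points have an unadjusted p under 0.05, and the values run from 0.08 with the dopaminergic markers as a covariate to 0.40 without DJ-1+/+ replicate 2.

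As Ret is a receptor of dopaminergic neurons, its level was set beside 14 dopaminergic neuron markers. All 14 markers had counts, and their summed level was between 591 and 1149 cpm in DJ-1+/+ and between 843 and 1224 cpm in DJ-1-/- mice (exact permutation p = 0.143). The markers were thus unevenly present among the DJ-1+/+ mice, with the highest sum in replicate 2 and the lowest in replicate 4. Of the 14 markers, 13 had a log2 fold change above 0, with a median of 0.42, where 51.8% of all genes tested were above 0. In edgeR's quasi-likelihood test 5 had an unadjusted p under 0.05, where 2.82% of all genes tested did. These were Th, Slc6a3, Pitx3, Foxa1 and Chrna6. Only Park7 had an adjusted p under 0.05 among all genes tested. Pitx3 and Foxa1 had few counts, with means of 1.78 and 7 per library, and Pitx3 was thus under the floor of 3. Both are named here after their values were seen. Th, the rate-limiting enzyme of dopamine synthesis, was at 64.3 ± 35.7 cpm (SD, n = 4) against 98.3 ± 17.8 cpm (SD, n = 5), a log2 fold change of 0.61 (unadjusted p = 0.0226 in edgeR's quasi-likelihood test). Slc6a3, the dopamine transporter, was at 55.0 ± 49.99 cpm and 100.1 ± 24.4 cpm, a log2 fold change of 0.86 (unadjusted p = 0.0263). In the same comparison, all 9 cerebellar markers had a log2 fold change below 0 (median -0.89, 4 with an unadjusted p under 0.05). So had all 10 choroid plexus markers (median -1.39, 5 with an unadjusted p under 0.05), again beside 2.82% of all genes tested. The summed levels of the cerebellar and the choroid plexus markers had exact permutation p of 0.333 and 0.286. Of 9 markers of oculomotor and other cholinergic neurons, 7 were above 0 (median 0.44, none with an unadjusted p under 0.05). The part of these lists in the values of the dopaminergic markers was not tested. In bulk tissue, more dopaminergic cells in a sample and more RNA of these genes per cell cannot be told apart.

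Ret tended to be higher in the mice with more RNA of the dopaminergic markers. Over the 9 libraries Pearson's r was 0.852 (exact permutation p = 0.00381, adjusted p = 0.0915 over 24 relations) and Spearman's rho was 0.833 (exact permutation p = 0.00827, adjusted p = 0.198). Without the 2 libraries farthest from the median marker level, DJ-1+/+ replicates 3 and 4, r was 0.799, and for the deviations from the genotype means it was 0.776. The relation did not pass the adjustment over 24 relations, except that without DJ-1+/+ replicate 1 r was 0.897 with an adjusted exact permutation p of 0.039. Single markers differed widely in their r with Ret, from 0.245 to 0.953 with a median of 0.631, and 10 of the 14 were above 0.5. Spearman's rho with Ret was below 0 for Slc18a2 (-0.0667) and Aldh1a1 (-0.0833). It was above 0 for the other markers, up to 0.967 for Chrna6. Slc18a2 and Aldh1a1 are named here after their values were seen. Both values of each library share the library total, and the genotype is part of the spread.

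With the summed dopaminergic markers as a covariate, the log2 fold change of Ret was 0.08 (unadjusted p = 0.517 in edgeR's quasi-likelihood test), where it was 0.25 without the covariate. Ret divided by the summed markers within a library did not differ between genotypes beyond the spread, with a geometric mean of 0.115 in DJ-1+/+ and 0.106 in DJ-1-/- mice (exact permutation p = 0.46). Among the genes whose level was most like that of Ret over the 9 libraries, of 10770 genes with a mean of at least 20 counts, were Chrna6, a nicotinic receptor subunit of dopaminergic neurons (r = 0.953), and the unnamed transcript gene Gm15710 (r = 0.947). These are among the highest of 10770 values over 9 points and are given as a description.

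**Figure D4:**
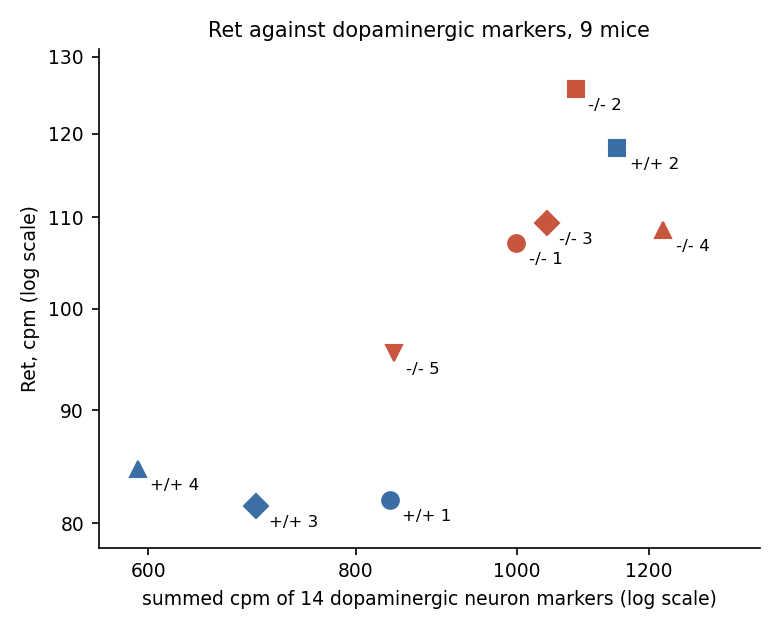
Ret in cpm (vertical axis, log scale) against the summed cpm of 14 dopaminergic neuron markers (horizontal axis, log scale), 1 point per mouse, DJ-1+/+ in blue and DJ-1-/- in red, with replicate numbers. DJ-1+/+ replicate 2 (118 cpm of Ret, 1149 cpm of markers) sits with DJ-1-/- replicates 1 to 4, and DJ-1+/+ replicates 1, 3 and 4 hold the lowest levels of Ret.

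Ntrk2, which encodes the BDNF receptor TrkB, is at chr13:58806569-59133970 (plus strand). It had 219, 249, 176 and 228 counts in DJ-1+/+ and 225, 273, 259, 251 and 291 counts in DJ-1-/- mice, or 251 ± 33.1 cpm (SD, n = 4) against 257 ± 21.8 cpm (SD, n = 5). DJ-1+/+ replicate 3 was lowest at 205 cpm, and the other 8 mice were between 225 and 284 cpm. Its log2 fold change was 0.03 (SE 0.09, unadjusted p = 0.744 in edgeR's quasi-likelihood test), an interval of 0.894 to 1.17 times the DJ-1+/+ level. Transcripts of Ntrk2 are annotated with 6 separate 3′ ends, and the deposited counts are summed per gene, so full-length and truncated TrkB are not separated here.

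Of the 7 members with a mean of at least 20 counts, Ntrk2 varied most within a genotype, with a chi-square per degree of freedom of 2.68. The median over all genes with a mean count from 200 to 400 was 1.49, and Ntrk2 had a mean of 241 counts. Its relation to the summed level of 10 oligodendrocyte markers was negative but did not pass the adjustment, with r = -0.805 (exact permutation p = 0.00834, adjusted p = 0.1 over 24 relations) and rho = -0.717 (exact permutation p = 0.0369, adjusted p = 0.29). Without DJ-1+/+ replicates 2 and 3, the farthest from the median of these markers, r was -0.61, and for deviations from the genotype means it was -0.802. Without DJ-1+/+ replicate 1 it was -0.915, with an adjusted exact permutation p of 0.025. With 10 astrocyte markers r was -0.343 (exact permutation p = 0.363, adjusted p = 0.577). The genes most like Ntrk2 were Slf2 (r = 0.97), Chml (r = 0.963) and Cep126 (r = 0.957).

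Ntrk3, which encodes the neurotrophin-3 receptor TrkC, is at chr7:78175959-78738012 (minus strand). Its counts were 132, 160, 123 and 128 in DJ-1+/+ and 161, 175, 130, 154 and 150 in DJ-1-/- mice, or 157 ± 17.95 cpm (SD, n = 4) against 152 ± 11.7 cpm (SD, n = 5). DJ-1+/+ replicate 2 was highest at 182 cpm and DJ-1-/- replicate 3 lowest at 134 cpm, and the remaining mice of both genotypes were intermixed. Its log2 fold change was -0.04 (SE 0.09, unadjusted p = 0.630 in edgeR's quasi-likelihood test), an interval of 0.856 to 1.10 times. Its sign turned without DJ-1+/+ replicate 2 or DJ-1-/- replicate 3. Its transcripts end at 5 separate places and are pooled. The ratio of Ntrk2 to Ntrk3 within a library was 1.60 in DJ-1+/+ and 1.69 in DJ-1-/- mice as geometric means, with an exact permutation p of 0.556.

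Cdnf is at chr2:3513030-3526376 (plus strand) and had few counts. There were 1, 1, 1 and 4 counts in DJ-1+/+ and 4, 5, 2, 3 and 9 counts in DJ-1-/- mice. DJ-1+/+ replicates 1, 2 and 3 were thus below each DJ-1-/- mouse, but DJ-1+/+ replicate 4 at 4.51 cpm was above 3 of the 5. Summed over mice there were 7 counts in DJ-1+/+ and 23 in DJ-1-/- mice, a ratio of 2.25 per library total with an exact 95% interval of 0.935 to 6.21 for counting error alone. In edgeR's quasi-likelihood test the log2 fold change was 1.12 (SE 0.62, unadjusted p = 0.0924), a value that depends on the prior count, and the exact permutation p was 0.111. Without DJ-1+/+ replicate 4 it was 1.85, with an unadjusted p of 0.0225 and an exact permutation p of 0.0357, the smallest that 3 mice against 5 allow. Without DJ-1-/- replicate 5 it was 0.73 (unadjusted p = 0.274). With Xist as a covariate the log2 fold change of Cdnf was 1.61 (unadjusted p = 0.02), and with the dopaminergic markers as a covariate it was 2.27 (unadjusted p = 0.00871).

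Manf, the paralog of Cdnf, is at chr9:106838312-106891979 (minus strand). It had 85, 71, 74 and 70 counts in DJ-1+/+ and 74, 87, 83, 57 and 74 counts in DJ-1-/- mice, or 86.7 ± 9.98 cpm (SD, n = 4) against 74.0 ± 9.92 cpm (SD, n = 5). The highest level, 101 cpm, was in DJ-1+/+ replicate 1 and the lowest, 58.9 cpm, in DJ-1-/- replicate 4, and between them the genotypes overlapped. The log2 fold change was -0.23 (SE 0.12, unadjusted p = 0.0760 in edgeR's quasi-likelihood test), an interval of 0.718 to 1.02 times, and the exact permutation p was 0.0952. With counts thinned to the smallest library total it was -0.34, with an unadjusted p of 0.0183 and an exact permutation p of 0.0476, and without DJ-1-/- replicate 3 the unadjusted p was 0.0425. Without DJ-1+/+ replicate 1, which held the highest level, the log2 fold change of Manf was -0.14 (unadjusted p = 0.264), in the libraries with Xist it was -0.16 (unadjusted p = 0.307), and without DJ-1-/- replicate 4 it was -0.17 (unadjusted p = 0.151). On the annotation Manf overlaps Rbm15b on the same strand and Dcaf1 on the other, and as the strand setting of the counting is not given in the sources used here, reads of the shared stretch could be assigned to another of these genes.

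Manf and Cdnf had log2 fold changes of opposite sign, and neither passed the tests above. The ratio of Manf to Cdnf within a library, with 0.5 added to both counts, rests on Cdnf counts that were partly under the floor of 3. It was 38.1 in DJ-1+/+ and 16.3 in DJ-1-/- mice as geometric means. The exact permutation p was 0.0794, or 0.397 adjusted over the 5 ratios computed. Without DJ-1+/+ replicate 4 the exact permutation p of this ratio, and that of Gfra1 to Gfra2, was 0.0357 each, the smallest that 3 mice against 5 allow. With all mice the ratio of Gfra1 to Gfra2 was 0.818 in DJ-1+/+ and 0.911 in DJ-1-/- mice (exact permutation p = 0.46), and that of Ret to Gfra1 was 1.35 and 1.45 (exact permutation p = 0.603).

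From mouse to mouse, correlations among the neurotrophic genes were low to moderate. Over the 7 genes with a mean of at least 20 counts, r between log2(cpm + 1) values ran from -0.549 for Gfra1 and Manf to 0.513 for Gfra2 and Ntrk2, and Ret and its co-receptor Gfra1 had an r of 0.279. These are given as a description over 9 libraries that share a total for all genes. The genes most like Gfra1 were Trmt61a (r = 0.966), Plekhm1 (r = 0.921) and 1700048O20Rik (r = 0.91), and those most like Gfra2 were Magi3 (r = 0.967), Gm37077 (r = 0.945) and Snrnp48 (r = 0.941). Those most like Bdnf were Prps1 (r = 0.927), Cant1 (r = 0.913) and Uck1 (r = 0.881). For Ntrk3 they were B230118H07Rik (r = 0.946), Wipi2 (r = 0.893) and Iars2 (r = 0.887), and for Manf Pmm2 (r = 0.959), Mmp24 (r = 0.927) and Dzank1 (r = 0.925). No gene appeared in the lists of 2 members.

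The other genes of these pathways were examined in 7 lists of 129 genes, of which 119 were tested. In edgeR's quasi-likelihood test 1 of the 119 had an unadjusted p under 0.05, where 2.82% of all genes tested did, and none had an adjusted p under 0.05, while with DESeq2 none of the 119 passed at either threshold. Of the 119 genes, 51 had a log2 fold change above 0 and 68 below, where 51.8% of all genes tested were above 0. The median of the 119 was -0.01 beside 0.01 over all genes tested. By the exact permutation test on cpm, Spred1, an inhibitor of the ERK branch, had a p of 0.0317, lower in DJ-1-/- mice, and it is named here after its values were seen.

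Among other GDNF family ligands and receptors, 5 of 10 genes were tested and none had an unadjusted p under 0.05. Nrtn, which encodes neurturin, the RET ligand that acts through GFRα2, was above the minimum with 133 counts in all, 14.1 ± 7.10 cpm (SD, n = 4) in DJ-1+/+ against 16.7 ± 3.18 cpm (SD, n = 5) in DJ-1-/- mice, and its log2 fold change was 0.23 (SE 0.32). It is named here after its values were seen. Artn, Pspn, Gfra3, Gfral and Gdf15 were below the minimum, with at most 9 counts in all. Sdc3, a syndecan that binds GDNF, had the highest log2 fold change among genes with a mean of at least 20 counts (0.08, SE 0.09), and Gas1, a surface protein related to the GFRα receptors, had the lowest (-0.15, SE 0.17). Among other neurotrophins and receptors, 10 of 11 genes were tested and none passed. The sortilin-family receptors Sorcs2 at 0.22 (SE 0.18) and Sorcs3 at -0.03 (SE 0.12) were the highest and lowest among genes with a mean of at least 20 counts. The ligands Ntf3 and Ntf5 were low, with 54 and 8 counts in all.

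For the processing and transport of proneurotrophins, 12 of 13 genes were tested and none had an unadjusted p under 0.05. Among those with a mean of at least 20 counts, Hap1, which takes part in the transport of BDNF vesicles, had the highest log2 fold change (0.11, SE 0.10) and Plat, the tissue plasminogen activator, the lowest (-0.18, SE 0.21). Of the 39 adaptors and kinases downstream of RET and the Trk receptors, none had an unadjusted p under 0.05. Among those with a mean of at least 20 counts, the adaptors Dok5 at 0.22 (SE 0.16) and Shc2 at -0.18 (SE 0.24) were the highest and lowest, and some genes with fewer counts had larger values with larger errors.

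For the targets and feedback inhibitors of the ERK branch none of 18 genes passed, 6 with a log2 fold change above 0 and 12 below. Of all genes tested 51.8% were above 0, and the median of this list was -0.04 beside 0.01 over all genes tested. At a mean of at least 20 counts the extremes were the immediate early gene Egr1 at 0.26 (SE 0.17) and the synaptic protein gene Nptx2 at -0.19 (SE 0.55, with SDs of 27.8 and 16.9 cpm in the 2 genotypes). Of 26 other trophic ligands and receptors, 23 were tested and none passed, and the extremes at a mean of at least 20 counts were Tgfbr1, a TGF-β receptor, at 0.40 (SE 0.22, unadjusted p = 0.0861 in edgeR's quasi-likelihood test) and Nrg1, a ligand of ERBB receptors, at -0.16 (SE 0.24).

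The partners of CDNF and MANF in the endoplasmic reticulum were the list with the 1 gene past the unadjusted threshold. Kdelr1, the receptor that returns KDEL-type proteins to the endoplasmic reticulum, had 148, 135, 133 and 141 cpm in DJ-1+/+ and 124, 114, 117, 142 and 111 cpm in DJ-1-/- mice. The DJ-1-/- mice were lower except for replicate 4, which was above 3 of the 4 DJ-1+/+ mice. For Kdelr1 the log2 fold change was -0.20 (SE 0.08, unadjusted p = 0.0298, adjusted p = 0.9999 in edgeR's quasi-likelihood test), and the exact permutation p was 0.0635. All 12 genes of this list were tested, 7 with a log2 fold change above 0 and 5 below, beside 51.8% above 0 over all genes tested. Hyou1, a chaperone, was highest among those with a mean of at least 20 counts at 0.20 (SE 0.23).

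Many genes of this list are induced together when folding is disturbed, through the ER stress response element, whose letters are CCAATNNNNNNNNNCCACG. Among 32851 RefSeq promoter windows of 300 bases (250 before and 50 after the start, GRCm38.p6), 39 (0.119%) held these letters on either strand. Of the 12 genes of the list 10 were in the table, and 3 held the element. The stretches are shown because they mark the genes of the list that share this sequence, with the element in capitals and 10 bases on each side, 5′ to 3′ on the strand of the gene. The element reads in the direction of the gene in Hspa5 and the first stretch of Hsp90b1, and on the other strand in the rest.
Hspa5, chr2:34772015-34772053, plus strand: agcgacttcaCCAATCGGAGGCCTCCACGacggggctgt
Hsp90b1, chr10:86705628-86705666, minus strand: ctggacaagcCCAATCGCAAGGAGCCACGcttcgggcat
Hsp90b1, chr10:86705523-86705561, minus strand: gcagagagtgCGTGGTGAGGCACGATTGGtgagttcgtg
Creld2, chr15:88819510-88819548, plus strand: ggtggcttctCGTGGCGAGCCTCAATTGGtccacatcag

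These 3 genes, named for the sequence and not for their values, did not differ between genotypes beyond the error. Hspa5, the chaperone BiP that binds MANF, had a log2 fold change of -0.13 (SE 0.08, unadjusted p = 0.122 in edgeR's quasi-likelihood test). Hsp90b1, the chaperone GRP94, had a log2 fold change of -0.00366 (SE 0.08), and Creld2, an ER stress-inducible protein, one of 0.01 (SE 0.24). Of the 9 neurotrophic genes, 5 were in the promoter table (Gfra1, Gdnf, Bdnf, Ntrk2 and Cdnf) and none of the 5 held the element. A match or its absence describes only these letters in this window.

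**Figure D5:**
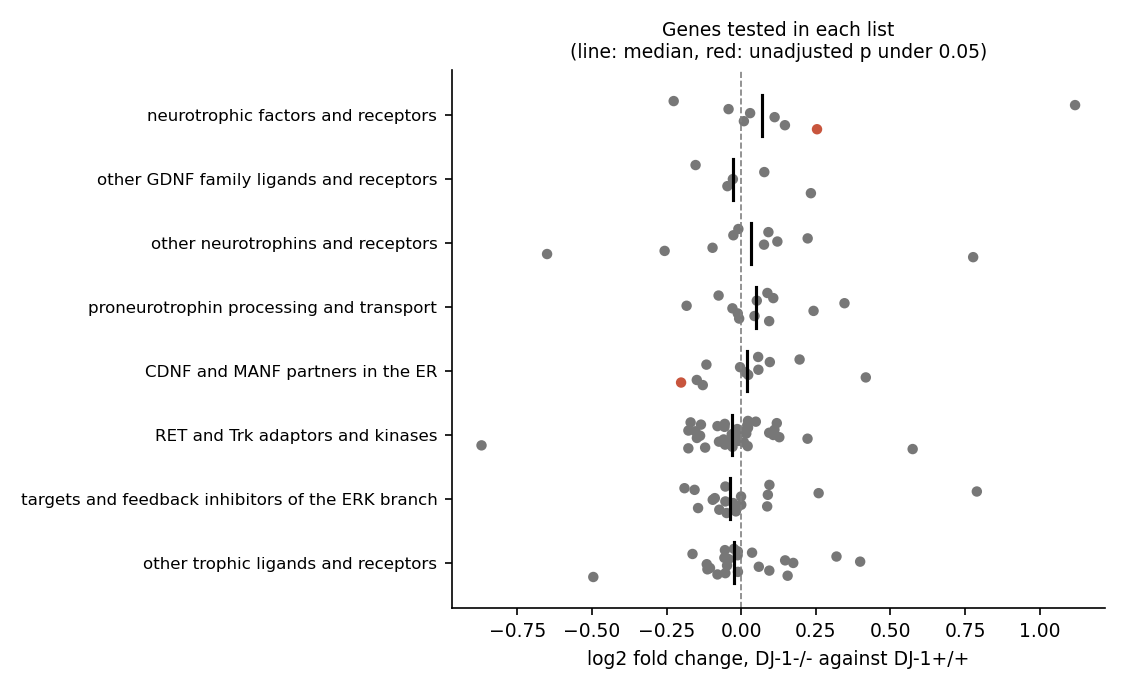
Log2 fold change of DJ-1-/- against DJ-1+/+ mice (horizontal axis) for the tested genes of each list, 1 point per gene, with the median of the list as a black line and genes with an unadjusted p under 0.05 in red. Ret and Kdelr1 are the 2 red points, and the medians of the lists lie between -0.04 and 0.07.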

How the data were processed

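Midbrain RNA of 4 DJ-1+/+ and 5 DJ-1-/- mice was prepared with the QuantSeq 3′ kit. The authors deposited, for each library, the count of unique molecular identifiers per Ensembl gene as whole numbers without normalization, and genes that a library does not list were set to 0. The submitters' processing notes name fastp 0.20.0, STAR 2.7.3a, Subread, featureCounts 2.0.0, UMI-tools 1.0.0 and GRCm38, and the strand setting is not given in the sources used here. Symbols and positions were from GENCODE M21, which held 26576 of the 26602 identifiers.

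Genes with at least 10 counts over 9 libraries were tested with edgeR 4.0.16 in R 4.3.3 (TMM, estimateDisp, glmQLFit, glmQLFTest, genotype as the only term) with Benjamini-Hochberg adjustment over all 18127 genes. The SE of a log2 fold change was its absolute value over √F. Single values were compared with exact two-sided permutation tests over all 126 splits in scipy 1.17.1. Correlations were computed on log2(cpm + 1). The mice are separate animals, and p-values measure the spread between them. Libraries of one genotype differed by more than sampling noise, with a chi-square per degree of freedom of 1.07 to 2.27 over 16 pairs. Counting intervals and the floor of 3 counts cover counting error only.

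The named genes are the 9 members, Park7, Xist, Ddx3y, Th and Slc6a3, in each list the genes with an unadjusted p under 0.05 and the highest and lowest log2 fold change at a mean of at least 20 counts, and the 3 genes most correlated with each member. Some genes that this rule names are not reported here. Members, lists and tests were chosen with earlier results of these data known. Alternatives were RLE size factors, library totals, no filter, filterByExpr, DESeq2 1.42.0, thinned counts, a replicate block, Xist or dopaminergic markers as a covariate, subsets of libraries and each library left out. Data were simulated for this comparison in which 200 of 17818 genes had a true log2 change of 1. At an adjusted p under 0.05 edgeR recovered 187 and called 8 of 17618 unchanged genes, and DESeq2 recovered 177 and called 8. The simulation gave all genes the same dispersion and changed only genes with a mean of at least 20 counts. It added no differences between libraries beyond their totals. It therefore does not tell how well smaller changes, or changes of genes with few counts, would be found in the real libraries.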

Additional observations from a re-analysis of the deposited data

Results flagged for a closer look

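In 3 of 28 groups of values examined, 1 mouse stood apart from the others of its genotype, where chance marks about 1 in 20 groups, or 1.4 of 28. That rate holds for separate groups without ties. The ratios reuse the counts of single genes, and some groups hold few counts with ties, so 3 and 1.4 cannot be compared strictly. Ret was at 118 cpm in DJ-1+/+ replicate 2, whereas the other DJ-1+/+ mice were between 81.4 and 84.6 cpm. This mouse also had the highest summed dopaminergic markers of its genotype. Cdnf was at 4.51 cpm in DJ-1+/+ replicate 4, which is 4 counts, whereas the other DJ-1+/+ mice had 1 count each, or 1.14 to 1.19 cpm. As a result the log2 ratio of Manf to Cdnf was 3.97 in DJ-1+/+ replicate 4 and between 5.57 and 5.83 in the others. This library also had the highest choroid plexus markers, and the part of these in the Cdnf counts was not tested.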

How the results depend on the processing

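No gene among the 9 had an adjusted p under 0.05 under any of the 20 alternatives, where the lowest adjusted p was 0.86. The count of members with an unadjusted p under 0.05, 1 in the main test, was 0 with filterByExpr, with DESeq2, in the libraries with Xist and without DJ-1+/+ replicates 1 and 4, was 2 with thinned counts, and ran from 0 to 2 when each library was left out. With Xist or the dopaminergic markers as a covariate the count stayed at 1, but the gene was Cdnf and not Ret. By the exact permutation test the count of members was 1 with thinned counts (Manf) and 0 to 1 with each library left out. Without a library, the count of ratios with an exact permutation p under 0.05 was 0 to 2, and that of relations to marker levels 0 to 2. The count of other pathway genes with an unadjusted p under 0.05, 1 in the main test, was 2 with RLE size factors, 4 without a filter, 2 with filterByExpr, 0 with DESeq2, 7 with the dopaminergic markers as a covariate, 3 in the libraries with Xist, 4 without DJ-1+/+ replicates 1 and 4, and 0 to 6 with each library left out.

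The sign of log2 fold changes near 0 turned. For Gfra2 it was -0.000874 with RLE size factors, -0.000184 with Xist as a covariate, -0.12 with the dopaminergic markers as a covariate, -0.12 in the libraries with Xist, -0.0842 without DJ-1+/+ replicates 1 and 4, and -0.0730 to 0.0904 with each library left out. For Ntrk2 it was -0.00925 with the dopaminergic markers as a covariate and -0.0573 to 0.0858 with each library left out, and for Ntrk3 -0.0839 to 0.0321. The cause was not tested. Cdnf could not be fitted with filterByExpr, which leaves it out.

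Replicate numbers are shared between genotypes. The deviations of same-numbered mice from their genotype means had r of 0.29, 0.06, -0.12 and -0.20. Those of differently numbered mice had r from -0.37 to 0.56. These few values show no common deviation by number but cannot exclude a pairing, and the main test used none. With the replicate number as a block the log2 fold change of Ret was 0.30 (unadjusted p = 0.0113 in edgeR's quasi-likelihood test), that of Gfra2 -0.0247 and that of Ntrk2 -0.0121, 1 member had an unadjusted p under 0.05 and 0 an adjusted one. Genes with an adjusted p under 0.05 over the whole table were 8 with the block, 36 without a filter, 3 in the libraries with Xist, 1 to 2 with each library left out and 1 in the main test. Genes with an unadjusted p under 0.05 were 511 in the main test, 235 with DESeq2, 338 with filterByExpr, 802 without a filter, 791 with the dopaminergic markers as a covariate and 338 to 732 with each library left out. At these depths the 95% intervals of the 7 members with a mean of at least 20 counts were 0.18 to 0.28 wide to each side on the log2 scale, and Gdnf could not be compared.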
